A study of Homo sapiens with 20 samples.

Results

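The genes described here are 38 members of the stress programmes run by ATF4 and by the unfolded protein response, out of 25411 RefSeq genes counted in BEAS-2B cells, a line derived from human bronchial epithelium. They were chosen by symbol from their known roles, not by a threshold on their values, but with earlier results of these data known. All 38 were found in the files and passed the low-count filter in every comparison. They comprise 19 genes of the ATF4 arm, 11 of the ATF6 arm, 5 of the XBP1 arm and the 3 stress sensors ATF6, ERN1 and EIF2AK3. Total RNA was sequenced in 20 libraries of 7 groups that follow nickel chloride, a soluble form of a carcinogenic metal. Ni_3D (2 libraries) is the short exposure, read from its title as 3 days, and Ni_3D+14D (2 libraries) had 14 further days, with Control_3D (4 libraries) as their control. Ni_6W (2 libraries) had 6 weeks of nickel, Ni_6W+2W (2 libraries) was then washed and grown without nickel for 2 weeks, and Ni_clone (6 libraries) are single colonies picked after 6 weeks at a labelled 100 mM and expanded without nickel. Control_6W (2 libraries) is the control of the long exposure. The dose of the other nickel groups is not given in the sources used here, and no label says whether replicates were separate cultures, so p-values measure the spread between these libraries, which may be technical.

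The unfolded protein response starts when misfolded proteins build up in the endoplasmic reticulum (ER). The kinase PERK (EIF2AK3) then phosphorylates the initiation factor eIF2, which lowers translation in general but raises that of ATF4 mRNA, and ATF4 switches on genes for amino acid supply, redox defence and, through DDIT3 (CHOP), cell death. Other eIF2 kinases that sense amino acid shortage, haem loss or double-stranded RNA reach ATF4 without ER stress, a route called the integrated stress response. The sensor ATF6 is cut in the Golgi and drives ER chaperone genes, and the sensor IRE1 (ERN1) splices XBP1 mRNA, whose product drives genes of ER-associated degradation. The counts are per gene, so neither the translation of ATF4 nor the splicing of XBP1 can be read from them.

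Libraries held 8609243 reads (Control_3D replicate 4) to 88848786 reads (Ni_3D replicate 2). Member counts ran from 41 reads (CHAC1 in Ni_6W replicate 1) to 80086 reads (CALR in the same library). The part of counting error in the spread between libraries was not tested. The epithelial keratins KRT8 and KRT18 were at 186 to 836 and 134 to 388 CPM (read counts scaled to a common library size by TMM) in the 20 libraries, while the basal and epithelial markers TP63 and KRT5 did not exceed 0.21 and 4.04 CPM. The epithelial marker EPCAM was at 1.58 to 9.59 CPM. CDH1, another, was at 29.1 CPM in Ni_3D replicate 1, 11.4 CPM in Control_3D replicate 1 and at most 2.05 CPM in the other 18 libraries. The collagen gene COL1A1 was at 533 to 6781 CPM, but COL1A2 was at 0.18 to 98.4 CPM and the fibroblast marker PDGFRA did not exceed 0.18 CPM. Of 3 immune markers CD3E and PTPRC did not exceed 0.05 and 0.31 CPM, while the macrophage and lysosomal marker CD68 was at 22.4 to 81.7 CPM. Of 5 luminal breast markers, all 5 had reads in Ni_3D replicate 1 and Control_3D replicate 1, where they summed to 129 and 56.6 CPM, against at most 2.60 CPM in the other 18 libraries. These libraries stand apart from their groups, so the short-exposure results are also given without both. In bulk RNA, fewer cells of a kind and less RNA per cell cannot be told apart.

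The promoters of the members were searched for letter patterns named after the factors of each arm. RefSeq promoters (250 bases before to 50 after the annotated start, GRCh38.p14) were matched by symbol for 36 of the 38 members, all but PSPH and SHMT2, and read on both strands. The motif TGATGNAA (CARE, bound by ATF4 with a C/EBP partner) was found in 5 of 17 ATF4 arm promoters (29.4%), in ATF3, CHAC1, ASNS, SLC3A2 and SLC7A1, against 3.62% of all 35116 promoters of that length. The motif ERSE, bound by ATF6 with NF-Y and searched as CCAAT and CCACG with 9 free bases between them, was found in 5 of 11 ATF6 arm promoters (45.5%), in HSPA5, HSP90B1, CRELD2, CALR and CANX, and in XBP1, against 0.0769% of all promoters. A shorter form, ERSE-II, searched as ATTGG and CCACG with 1 free base between them, was found in HYOU1, SDF2L1 and HERPUD1 (27.3% of the ATF6 arm), against 0.0541% of all. The motif TGACGTGG (UPRE, bound by XBP1 and ATF6) was found in HYOU1, where it overlaps an ERSE-II match, and in 0.729% of all promoters. Of the members that changed after nickel below, ATF4, DDIT3, STC2, VLDLR and CEBPB hold none of these 4 letter patterns in this window, which says nothing of sites elsewhere or of other spellings. A match is a description of letters and not a measured binding site. Windows were matched by symbol in GRCh38.p14, while the counted genes carry hg19 positions. Whether a window, such as that of ATF3, belongs to the transcript that was counted was not tested.

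The 7 promoters are printed to show the arms side by side, on the strand of the gene with matches in capitals: CARE in ASNS, CHAC1 and ATF3, CARE and then ERSE-II in HERPUD1, and ERSE in HSPA5, HSP90B1 and XBP1. They lie at chr7:97872359-97872658 (minus strand) for ASNS, chr15:40953221-40953520 (plus strand) for CHAC1, chr1:212565157-212565456 (plus strand) for ATF3, chr16:56931892-56932191 (plus strand) for HERPUD1, chr9:125241294-125241593 (minus strand) for HSPA5, chr12:103930160-103930459 (plus strand) for HSP90B1 and chr22:28800520-28800819 (minus strand) for XBP1. Matches run from base -68 to -61 before the start in ASNS, from -209 to -202 in CHAC1 (read on the opposite strand) and from -191 to -184 in ATF3. The ERSE of HSPA5 lies at -66 to -48 and that of XBP1 at -52 to -34, while HSP90B1 holds a forward match at -194 to -176 and a reverse match at -89 to -71. HERPUD1 is the member with both kinds, a reverse CARE at -176 to -169 and an ERSE-II at -117 to -107.
ASNS: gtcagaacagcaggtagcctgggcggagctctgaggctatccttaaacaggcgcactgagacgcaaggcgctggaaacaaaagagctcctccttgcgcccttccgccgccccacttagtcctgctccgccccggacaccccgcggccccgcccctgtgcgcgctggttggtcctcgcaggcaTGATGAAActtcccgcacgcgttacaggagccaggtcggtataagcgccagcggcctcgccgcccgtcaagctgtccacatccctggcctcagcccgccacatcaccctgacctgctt
CHAC1: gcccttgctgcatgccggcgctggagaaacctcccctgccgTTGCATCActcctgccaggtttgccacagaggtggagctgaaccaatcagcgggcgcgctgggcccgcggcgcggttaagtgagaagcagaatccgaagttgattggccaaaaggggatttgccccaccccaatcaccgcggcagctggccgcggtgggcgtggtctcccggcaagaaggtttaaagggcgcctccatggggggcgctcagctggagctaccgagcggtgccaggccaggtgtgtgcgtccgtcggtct
ATF3: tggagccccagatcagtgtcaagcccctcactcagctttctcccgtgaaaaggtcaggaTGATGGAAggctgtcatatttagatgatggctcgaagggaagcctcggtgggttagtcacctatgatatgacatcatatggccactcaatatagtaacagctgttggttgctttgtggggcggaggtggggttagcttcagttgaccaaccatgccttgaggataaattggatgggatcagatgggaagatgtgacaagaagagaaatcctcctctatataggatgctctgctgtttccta
HERPUD1: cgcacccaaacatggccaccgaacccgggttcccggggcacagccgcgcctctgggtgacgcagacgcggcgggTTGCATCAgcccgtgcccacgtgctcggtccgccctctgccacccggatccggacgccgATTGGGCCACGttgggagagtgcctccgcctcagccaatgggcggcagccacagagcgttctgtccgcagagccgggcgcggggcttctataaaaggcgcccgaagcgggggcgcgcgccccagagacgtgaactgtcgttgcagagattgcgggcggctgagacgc
HSPA5: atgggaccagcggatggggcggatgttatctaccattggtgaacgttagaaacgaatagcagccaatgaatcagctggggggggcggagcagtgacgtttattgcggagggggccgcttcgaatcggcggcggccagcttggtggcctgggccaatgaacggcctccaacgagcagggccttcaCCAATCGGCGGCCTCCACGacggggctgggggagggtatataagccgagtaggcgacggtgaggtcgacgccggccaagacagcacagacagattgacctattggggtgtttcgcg
HSP90B1: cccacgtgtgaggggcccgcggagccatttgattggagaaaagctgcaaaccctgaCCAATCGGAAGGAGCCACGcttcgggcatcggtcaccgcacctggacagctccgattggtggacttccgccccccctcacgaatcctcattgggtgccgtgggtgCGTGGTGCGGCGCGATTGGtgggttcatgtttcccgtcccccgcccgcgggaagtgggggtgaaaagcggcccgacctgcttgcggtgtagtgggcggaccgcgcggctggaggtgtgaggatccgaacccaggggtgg
XBP1: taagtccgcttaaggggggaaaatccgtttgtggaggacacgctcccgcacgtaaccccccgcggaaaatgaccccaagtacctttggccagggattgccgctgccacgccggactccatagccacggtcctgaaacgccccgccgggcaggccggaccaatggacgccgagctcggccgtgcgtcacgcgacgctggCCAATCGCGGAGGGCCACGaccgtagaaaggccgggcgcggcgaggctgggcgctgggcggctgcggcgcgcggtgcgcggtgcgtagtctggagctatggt

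In Control_3D, per length, the ATF6 arm chaperone calreticulin (CALR) was the most abundant member at 647 ± 213 RPKM (SD, n = 4), followed by HSP90B1 at 176 ± 30.1 RPKM and CANX at 169 ± 16.8 RPKM, which overlap within their spread. ATF4 itself ranked 10 of 38 at 115 ± 33.2 RPKM. The sensors were among the lowest, with ATF6 at 8.69 ± 0.872, EIF2AK3 at 4.98 ± 0.327 and ERN1 at 2.12 ± 0.535 RPKM.

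**Figure D1:**
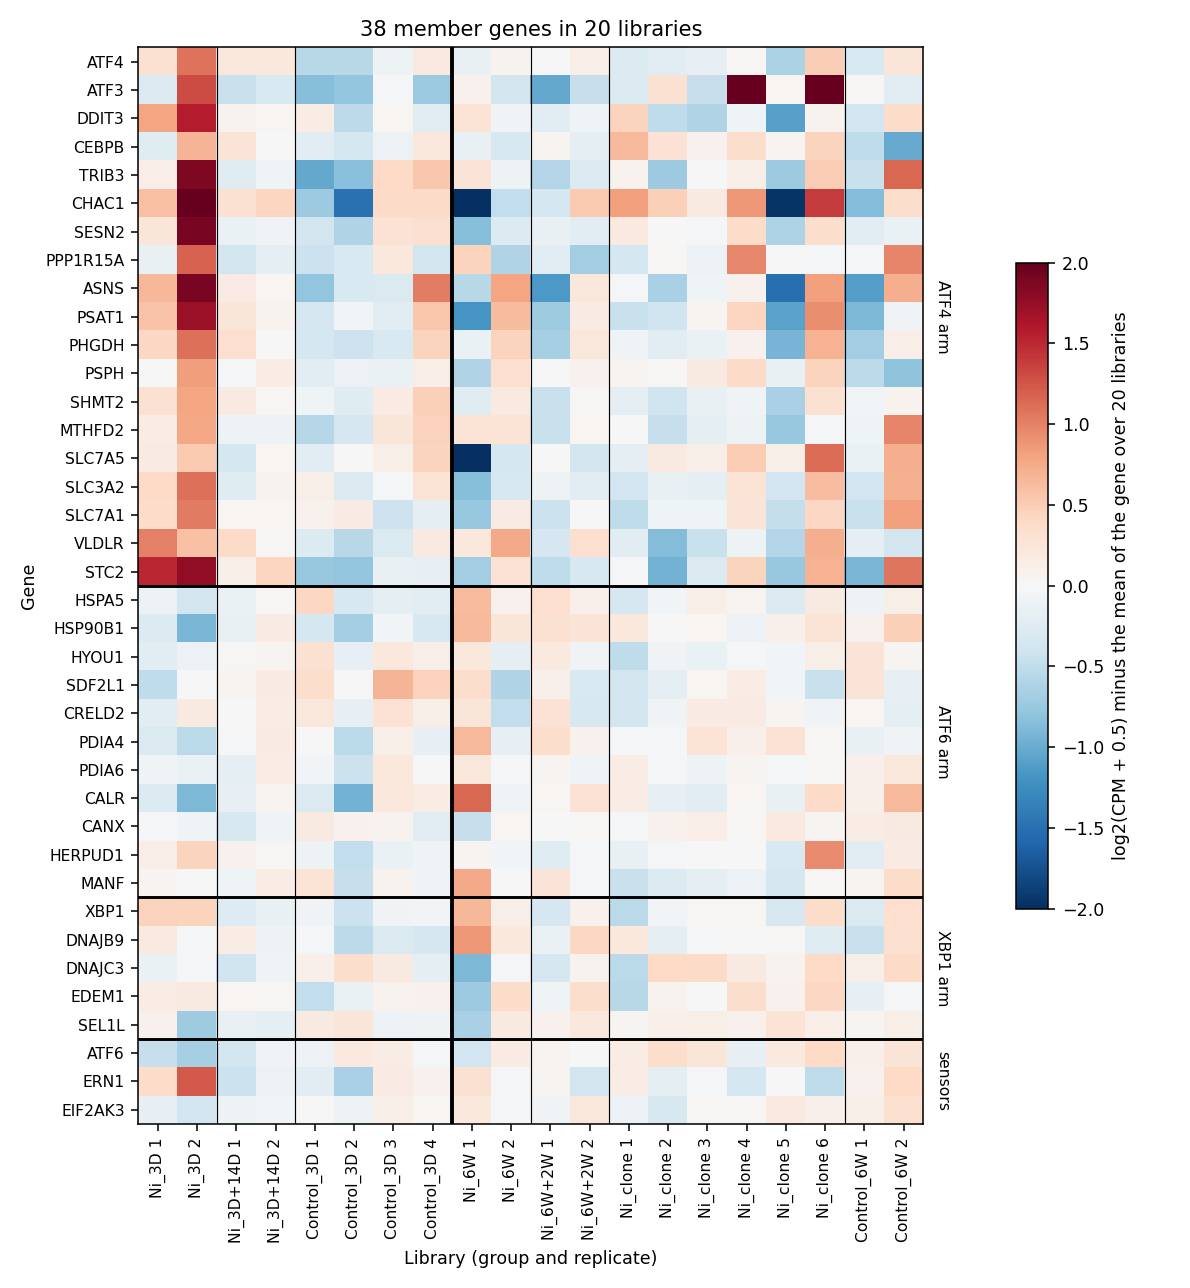
Each row is 1 of the 38 members and each column 1 of the 20 libraries; colour gives log2(CPM + 0.5) minus the mean of the gene over the libraries, with colours limited to -2 and 2. The ATF4 arm is highest in Ni_3D replicate 2, which holds the top value of 15 of its 19 genes, and clone 6 exceeds clone 5 in 18 of them.

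In the short exposure, Ni_3D set against Control_3D, 4 of the 38 members rose and 0 fell, all 4 in the ATF4 arm: the transcription factors ATF4 and DDIT3, the secreted glycoprotein STC2 and the lipoprotein receptor VLDLR. The background of that comparison was 422 of 14927 genes higher (2.83%) and 225 lower (1.51%), or 4.33% in either direction, at an adjusted p under 0.05. All 19 ATF4 arm genes had a positive log2 fold change, with a median of 0.97, against a median of 0.03 over all genes tested. The ATF6 arm had 2 of 11 positive and a median of -0.18, and the XBP1 arm 3 of 5 positive and a median of 0.28. Both Ni_3D libraries lay above all 4 controls for 8 of the 19 ATF4 arm genes, 1 of 11 in the ATF6 arm and 3 of 5 in the XBP1 arm, against 20% of all genes. An unadjusted p under 0.05 was reached by 14 of 19, 2 of 11 and 1 of 5 genes of these arms, and by 3633 of all 14927.

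ATF4, the bZIP factor that gives the arm its name (chr22:39916569-39918691, plus strand, in the hg19 coordinates of the deposited files), had 283 and 489 CPM in Ni_3D, against 157, 156, 215 and 263 CPM in Control_3D. The groups did not overlap, but Ni_3D replicate 1 lay close to the highest control. The log2 fold change was 0.97 (SE 0.25, quasi-likelihood test of edgeR, Benjamini-Hochberg adjusted p = 0.0484). DDIT3, the pro-apoptotic factor CHOP (chr12:57910371-57914300, minus strand), had 40.4 and 69.3 CPM in Ni_3D, against 25.5, 15.8, 23.7 and 19.5 CPM in Control_3D. Both Ni_3D libraries were above every control, a log2 fold change of 1.38 (SE 0.27, edgeR, Benjamini-Hochberg adjusted p = 0.0186), or 2.60-fold. ATF3, a stress-induced partner of ATF4 and DDIT3, had 28.9 and 88.8 CPM in Ni_3D, against 19.4, 20.7, 34.8 and 20.9 CPM in Control_3D. Control_3D replicate 3 exceeded Ni_3D replicate 1, and the log2 fold change of 1.31 missed the threshold (SE 0.36, edgeR, Benjamini-Hochberg adjusted p = 0.058). CEBPB, a C/EBP factor that pairs with ATF4, overlapped with its controls at 160.0 and 302 CPM in Ni_3D, against 148 to 221 CPM in Control_3D (log2 fold change 0.40, edgeR, Benjamini-Hochberg adjusted p = 0.337).

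STC2, stanniocalcin 2, a secreted glycoprotein (chr5:172741726-172756506, minus strand), had the largest fold change of the 38 members. It had 687 and 824 CPM in Ni_3D, against 143, 140.5, 219 and 216 CPM in Control_3D, with the lowest Ni_3D library far above the highest control. The log2 fold change was 2.08 (SE 0.41, edgeR, Benjamini-Hochberg adjusted p = 0.0222), or 4.23-fold. VLDLR, the very-low-density lipoprotein receptor (chr9:2621793-2654485, plus strand), had 57.0 and 42.4 CPM in Ni_3D, against 23.2, 19.1, 23.1 and 32.1 CPM in Control_3D. The groups did not overlap, and VLDLR was the member of the ATF4 arm that was higher in Ni_3D replicate 1 than in replicate 2. The log2 fold change was 1.04 (SE 0.26, edgeR, Benjamini-Hochberg adjusted p = 0.041). An antisense gene, VLDLR-AS1, lies beside VLDLR, and the strand used in counting is not stated, so their reads cannot be told apart.

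**Figure D2:**
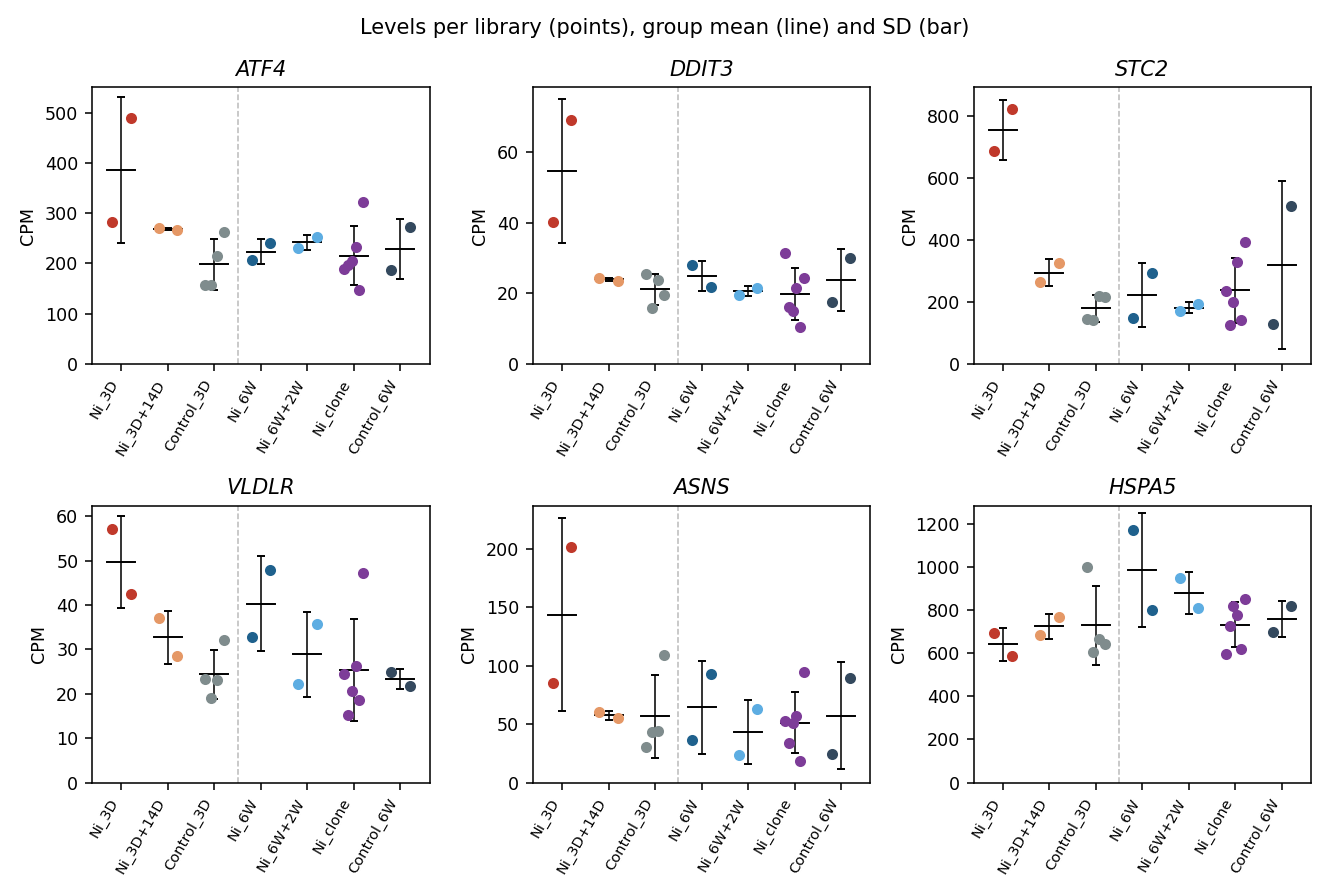
Points are CPM of 6 members in each library, with the group mean (line) and SD (bar), and the dashed line parts the short from the long groups. ATF4, DDIT3, STC2 and VLDLR in Ni_3D lie above every Control_3D library, ASNS overlaps through Control_3D replicate 4 at 109 CPM, and HSPA5 overlaps throughout.

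None of the other 15 ATF4 arm genes passed the test after the short exposure. The 4 stress regulators had a median log2 fold change of 1.34: SESN2, a sestrin that damps mTORC1, was at 1.35 (edgeR, Benjamini-Hochberg adjusted p = 0.0525), TRIB3, a pseudokinase that inhibits ATF4, at 1.335, PPP1R15A (GADD34), which brings a phosphatase to eIF2, at 0.87, and CHAC1, which degrades glutathione, at 1.85 with an SE of 0.70. SESN2 had 59.0 and 187 CPM in Ni_3D, against 38.7, 32.5, 60.8 and 62.4 CPM in Control_3D, so replicate 1 lay within the controls. The 6 enzymes of serine, asparagine and folate-linked carbon metabolism had a median of 0.75. ASNS, asparagine synthetase, had 85.5 and 202 CPM in Ni_3D, against 30.8, 43.3, 43.9 and 109 CPM in Control_3D, and Control_3D replicate 4 exceeded Ni_3D replicate 1. The serine pathway enzymes PHGDH, PSAT1 and PSPH were at 0.92, 1.25 and 0.58, and the mitochondrial folate enzymes SHMT2 and MTHFD2 at 0.47 and 0.50. PSPH has a pseudogene copy, PSPHP1, and how shared reads were counted is not stated. The 3 amino acid transporters had a median of 0.77, with SLC3A2 at 0.77 and SLC7A1 at 0.82, both above every control, and the leucine transporter SLC7A5 at 0.26 with groups that overlap.

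**Figure D3:**
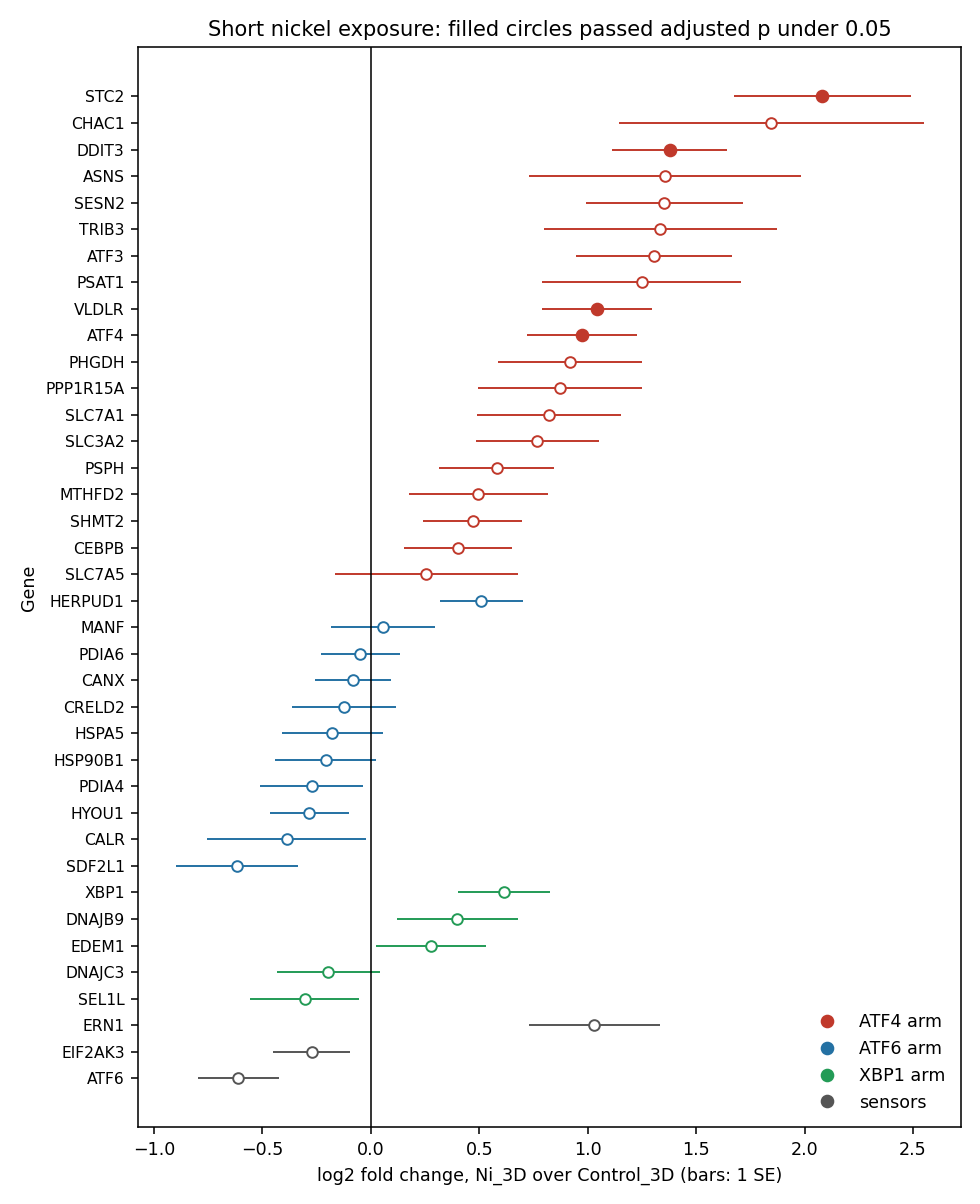
Log2 fold changes of the 38 members, Ni_3D over Control_3D, with 1 SE as bars, grouped by arm; filled circles passed an adjusted p under 0.05. All 19 ATF4 arm genes lie right of 0, from 0.26 (SLC7A5) to 2.08 (STC2), while 9 of 11 ATF6 arm genes lie left of it.

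The 2 Ni_3D libraries did not show the ATF4 arm to the same degree. Replicate 2 was above the highest control for 19 of 19 genes, against 31.5% of all genes, and replicate 1 for 8 of 19, against 32.5%. Replicate 2 exceeded replicate 1 for 18 of 19 (47.7% of all genes) and was the highest of all 20 libraries for 15 of 19 (10.9%), the exceptions being ATF3, MTHFD2, SLC7A5 and VLDLR. The controls also differed: replicates 3 and 4 were both above replicates 1 and 2 for 12 of 19 ATF4 arm genes, against 28.4% of all genes. Without Ni_3D replicate 2 the arm's median was 0.37, with 18 of 19 positive, the exception being CEBPB at -0.14, and no member was called. Without Ni_3D replicate 1 the median was 1.29, with 19 of 19 positive, and DDIT3, ATF3 and SESN2 were called. Ni_3D replicate 2 is also the deepest library and Control_3D replicate 4 the shallowest; the part of depth in these orders was not tested.

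**Figure D4:**
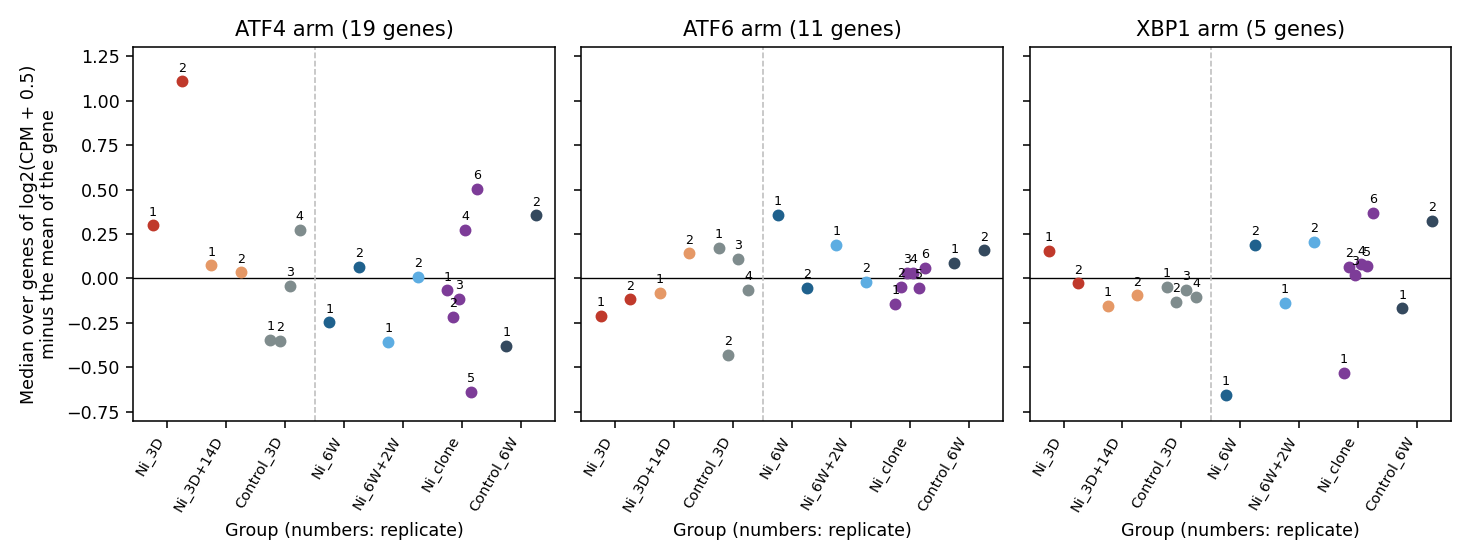
Each point is 1 library and gives the median, over the genes of an arm, of log2(CPM + 0.5) minus the mean of the gene over 20 libraries; numbers are replicates. The ATF4 arm stands at 1.11 in Ni_3D replicate 2 and 0.30 in replicate 1, against -0.35 to 0.27 in Control_3D, and the ATF6 arm of both Ni_3D libraries lies within the range of Control_3D.

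The 4 calls of the short exposure rest on few libraries. Their number was 0 without Control_3D replicate 2 or without Ni_3D replicate 2, 2 (DDIT3 and STC2) without Control_3D replicate 1 or without Control_3D replicate 3, and 4 without Control_3D replicate 4. Without Control_3D replicate 1 and Ni_3D replicate 1, the libraries with luminal breast markers, it was 3 (DDIT3, ATF3 and SESN2), and the arm's median was 1.20 with 19 of 19 positive. DESeq2 called 8 members, adding ATF3, SESN2 and the sensor ERN1 as higher and ATF6 as lower. Across 14 alternatives the call was lost in 4 for DDIT3, 6 for STC2, 9 for VLDLR and 11 for ATF4, while the direction of these 4 genes held in all 14.

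None of the 11 genes of the ATF6 arm, which include genes for chaperones and disulphide isomerases of the ER, passed the test in Ni_3D. HSPA5 (BiP), the chaperone whose rise is the usual readout of ER stress, had 695 and 585 CPM in Ni_3D, against 1000.4, 604, 665 and 643 CPM in Control_3D. The groups overlap, and the log2 fold change was -0.18 (SE 0.23, edgeR, Benjamini-Hochberg adjusted p = 0.67). The other log2 fold changes in the arm ran from -0.62 for SDF2L1, a cofactor of HSPA5, to 0.51 for HERPUD1, a membrane protein of ER-associated degradation. HERPUD1 was the member of this arm that lay above all controls, with 29.5 and 37.0 CPM in Ni_3D, against 25.01, 19.04, 24.4 and 25.7 CPM in Control_3D (SE 0.19, edgeR, Benjamini-Hochberg adjusted p = 0.128). It is also the member whose promoter window above holds both a CARE and an ERSE-II match.

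In the XBP1 arm, XBP1 itself had 156 and 154 CPM in Ni_3D, against 107, 83.6, 108 and 109 CPM in Control_3D. Both Ni_3D libraries were above every control, but the log2 fold change of 0.61 missed the threshold (SE 0.21, edgeR, Benjamini-Hochberg adjusted p = 0.105). DNAJB9, a co-chaperone that represses IRE1, was at 0.40, the mannosidase-like EDEM1 at 0.28, the co-chaperone DNAJC3 at -0.20 and SEL1L, the adaptor of an ER ubiquitin ligase, at -0.30. Among the sensors, ERN1 (IRE1) had 13.9 and 25.6 CPM in Ni_3D, against 9.03, 6.62, 12.0 and 11.4 CPM in Control_3D, above every control (log2 fold change 1.03, SE 0.30, edgeR, Benjamini-Hochberg adjusted p = 0.0673). ATF6 went the other way, with 52.4 and 45.6 CPM in Ni_3D, against 66.7, 82.9, 80.2 and 71.5 CPM in Control_3D, below every control (log2 fold change -0.61, SE 0.19, edgeR, Benjamini-Hochberg adjusted p = 0.0737). EIF2AK3 (PERK) had 23.5 and 20.1 CPM in Ni_3D, against 26.1, 24.4, 28.5 and 27.2 CPM in Control_3D, also below every control (log2 fold change -0.27, SE 0.18, edgeR, Benjamini-Hochberg adjusted p = 0.365). ATF6 and EIF2AK3 were the 2 of all 38 members below every control, against 18.5% of all genes, so such a position is common.

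Other genes of these pathways were counted in 4 lists. Of 20 further ATF4 targets tested, 3 rose in Ni_3D and 0 fell, with a median log2 fold change of 0.50: DDIT4 (REDD1), an mTORC1 inhibitor that hypoxia also induces, at 4.25 (SE 0.74), the alanine transaminase GPT2 at 1.496 (SE 0.25) and the folate enzyme MTHFD1L at 0.95 (SE 0.24). DDIT4 was at 633 to 652 CPM in Ni_3D, against 16.2 to 72.6 CPM in Control_3D. Of 12 tRNA ligases, which ATF4 raises when amino acids run short, 0 were called in either direction (median 0.39, 3 with an unadjusted p under 0.05). Of 25 further ER folding and degradation genes, 2 rose and 0 fell, with a median of 0.00: the disulphide isomerase P4HB at 0.98 (SE 0.20) and the ER membrane protein WFS1 at 0.87 (SE 0.18). P4HB was at 2955 and 3962 CPM in Ni_3D, against 1567 to 1913 CPM in Control_3D. Of 12 eIF2 kinases and other transducers 0 were called (median -0.19, 1 with an unadjusted p under 0.05).

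A list of hypoxia-inducible genes was also higher in Ni_3D. Of the 18 genes of the list 15 rose in Ni_3D (median log2 fold change 2.09). The list summed to 23441 and 25046 CPM in Ni_3D replicates 1 and 2, against 7333 to 8039 CPM in Control_3D. The ATF4 arm's median of log2(CPM + 0.5), less each gene's mean over the 20 libraries, was 0.30 and 1.11 in these replicates. A sum of CPM and such a median are unlike measures, and abundant genes weigh most in the sum. Single genes of the hypoxia list differed between replicates 1 and 2 in both directions. CA9 was at 624 and 368 CPM and NDRG1 at 2601 and 1704 CPM, while VEGFA was at 339 and 440 CPM and LDHA at 1580 and 1939 CPM. P4HB makes a subunit of the collagen prolyl hydroxylase, and DDIT4 and STC2 are known hypoxia-responsive genes as well as ATF4 targets. The fibroblast marker list also differed, with a summed level of 1453 and 533 CPM in Ni_3D, against 1922 to 4417 CPM in Control_3D, nearly all of it COL1A1. The part of these lists in the member results was not tested.

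With 14 further days, in Ni_3D+14D set against Control_3D, 0 of the 38 members were called, as were 0 of 14927 genes (0%) by edgeR, where 0 members and 613 genes had an unadjusted p under 0.05. DESeq2 also called 0 members. The ATF4 arm had a median log2 fold change of 0.14 with 12 of 19 positive, and the ATF6 and XBP1 arms medians of 0.04 and -0.06. Levels of ATF4 were 269.6 and 267 CPM in Ni_3D+14D, just above the 156 to 263 CPM of Control_3D (log2 fold change 0.44, SE 0.26, edgeR, Benjamini-Hochberg adjusted p = 0.979). STC2 had 263 and 325 CPM in Ni_3D+14D, also above every control at 140.5 to 219 CPM (0.71, SE 0.42). DDIT3 at 24.3 and 23.7 CPM lay within the 15.8 to 25.5 CPM of Control_3D. Groups did not overlap for 2 of 19 ATF4 arm genes, both higher, against 11.6% of all genes above and 10.3% below.

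Set directly against Ni_3D, the Ni_3D+14D libraries were lower across the ATF4 arm, but 0 of 38 members were called by edgeR, against 18 of 14927 genes higher (0.121%) and 20 lower (0.134%), or 0.255% in either direction. All 19 ATF4 arm genes had a negative log2 fold change, with a median of -0.89, and both Ni_3D+14D libraries lay below both Ni_3D libraries for 17 of 19, the exceptions being CEBPB and PSPH, against 26.8% of all genes. Unadjusted p-values were under 0.05 for 8 of 38 members, 6 of them in the ATF4 arm, and for 1876 of all 14927 genes. DESeq2 called 2 members as lower, DDIT3 at -1.20 (DESeq2, Benjamini-Hochberg adjusted p = 0.0198) and SESN2 at -1.42 (DESeq2, Benjamini-Hochberg adjusted p = 0.0467). In edgeR these were at -1.21 (SE 0.32, Benjamini-Hochberg adjusted p = 0.14) and -1.42 (SE 0.44, Benjamini-Hochberg adjusted p = 0.209). ERN1 was at 7.72 and 9.81 CPM in Ni_3D+14D, against 13.9 and 25.6 CPM in Ni_3D, and XBP1 at 94.8 and 102 CPM, against 156 and 154 CPM. The ATF6 arm had 9 of 11 positive and a median of 0.16. In it 5 genes lay above both Ni_3D libraries, against 27.4% of all genes, led by HSP90B1 (GRP94) at 0.55. Another 2, CANX and HERPUD1, lay below both, against 26.8% of all genes. Without Ni_3D replicate 2 the ATF4 arm's median was -0.31 with 2 of 19 positive.

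In cells kept 6 weeks in nickel (Ni_6W against Control_6W), 0 of the 38 members were called by edgeR, while 187 of 14927 genes were higher (1.25%) and 181 lower (1.21%), or 2.47% in either direction. Both Ni_6W libraries lay above both controls for 2 members and below them for 4, against 24.4% and 22.7% of all genes. The arms had medians near that of all genes (0.03), at -0.03 for the ATF4 arm, 0.03 for the ATF6 arm and 0.02 for the XBP1 arm. Single libraries turned them: the ATF4 arm's was 0.27 without Control_6W replicate 2 and -0.42 without replicate 1, the ATF6 arm's -0.19 without Ni_6W replicate 1 and 0.30 without replicate 2, and the XBP1 arm's -0.64 without Ni_6W replicate 2. Unadjusted p-values were under 0.05 for 4 of 38 members, SLC7A5, VLDLR, SLC3A2 and DNAJC3, a smaller share than the 3978 of 14927 over all genes, and DESeq2 called 1, SLC7A5 at -1.42 (DESeq2, Benjamini-Hochberg adjusted p = 0.0308). SLC7A5, the light chain of the leucine transporter, had 118 and 499 CPM in Ni_6W, against 582 and 1061 CPM in Control_6W. Both Ni_6W libraries were below both controls, with replicate 1 the lowest of all 20 libraries (log2 fold change -1.42, SE 0.50, edgeR, Benjamini-Hochberg adjusted p = 0.106). Its heavy chain SLC3A2 had 159 and 229 CPM in Ni_6W, against 221 and 472 CPM in Control_6W, which overlap (-0.84, SE 0.34). VLDLR had 32.7 and 47.8 CPM in Ni_6W, against 24.9 and 21.7 CPM in Control_6W, above both controls (0.79, SE 0.31, edgeR, Benjamini-Hochberg adjusted p = 0.13). Without Ni_6W replicate 2 SLC7A5 (-2.81) and DNAJC3 (-1.17) were called.

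The core readouts did not pass the test after 6 weeks. ATF4 had 207 and 241 CPM in Ni_6W, against 186 and 272 CPM in Control_6W, and DDIT3 28.0 and 21.9 CPM, against 17.6 and 29.9 CPM, both within the controls' range. STC2 had 148 and 295 CPM in Ni_6W, against 128 and 509.9 CPM in Control_6W. HSPA5 had 1171 and 799 CPM in Ni_6W, against 699 and 817 CPM in Control_6W, and XBP1 179 and 123 CPM, against 92.7 and 142 CPM. Ni_6W replicate 1 was the highest of the 20 libraries for HSPA5, HSP90B1, CALR, PDIA4, MANF, DNAJB9 and XBP1, and the lowest for CHAC1 at 1.79 CPM. It was also extreme outside the members. It was the highest for CD68 at 81.7 CPM and the lowest for KRT8, KRT18 and the hypoxia gene SLC2A1, at 186, 134 and 60.8 CPM. The share of all genes for which it was the highest was not computed. The 2 controls differed too, with Control_6W replicate 2 above replicate 1 for 15 of 19 ATF4 arm genes, against 50.7% of all genes. The same order was seen for 8 of 11 ATF6 arm genes, 5 of 5 XBP1 arm genes and 3 of 3 sensors. Of the other lists, 1 of 20 further ATF4 targets fell and 0 rose: ATF5, a factor close to ATF4, was at 12.2 and 17.5 CPM in Ni_6W, against 40.8 and 59.7 CPM in Control_6W (-1.76, SE 0.36, edgeR, Benjamini-Hochberg adjusted p = 0.0497). None of the 12 tRNA ligases, 25 ER genes or 12 transducers was called, and 1, 7 and 4 of them had an unadjusted p under 0.05, against the 3978 of 14927 over all genes.

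After 2 weeks of washout (Ni_6W+2W against Control_6W) 0 members and 0 of 14927 genes (0%) were called by edgeR, with an unadjusted p under 0.05 for 3 members and 1956 genes, and DESeq2 called 0 members. The 3 members were CEBPB (0.67), PSPH (0.72) and PPP1R15A, the last of which was lower. CEBPB had 197 and 166 CPM in Ni_6W+2W, against 133 and 93.9 CPM in Control_6W, and PSPH 27.7 and 29.9 CPM, against 19.3 and 15.7 CPM, both without overlap. Groups without overlap made up 3 members above and 7 below, against 23.8% and 20.4% of all genes. Arm medians were -0.20 (ATF4), -0.11 (ATF6) and 0.06 (XBP1), and without Control_6W replicate 2 the first was 0.23 and the second 0.06, while without replicate 1 the first was -0.50 and the third -0.17. Against Ni_6W, 0 members and 0 genes (0%) were called, with an unadjusted p under 0.05 for 0 members and 983 genes, and DESeq2 called 0 members. Of the 38, 3 lay above and 5 below without overlap, against 13.6% and 12.5% of all genes. XBP1 had the lowest p, with 89.7 and 119 CPM in Ni_6W+2W, against 179 and 123 CPM in Ni_6W (-0.54, SE 0.25). Without Ni_6W replicate 2 SLC7A5 was called as higher in Ni_6W+2W (2.27).

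The difference between the long and the short response, taken as Ni_6W over Control_6W minus Ni_3D over Control_3D, was called for 0 members and 0 genes (0%) by edgeR. Its median was -1.30 over the ATF4 arm, where 2 of 19 genes were positive and 10 had an unadjusted p under 0.05, and 0.04 over all genes, of which 1630 of 14927 had one. STC2 had the lowest p, with a difference of -2.61 (SE 0.65, edgeR, Benjamini-Hochberg adjusted p = 0.241), and DESeq2 called it (-2.60, Benjamini-Hochberg adjusted p = 0.0101) together with SLC3A2 (-1.59, Benjamini-Hochberg adjusted p = 0.0479). For ATF4 and DDIT3 the differences were -1.003 (SE 0.40) and -1.30 (SE 0.42). The ATF6 arm's median was 0.17 with 0 genes under an unadjusted p of 0.05. Without Control_6W replicate 2 the difference of STC2 was -1.27 and without Control_6W replicate 1 it was -3.27, which was called, and SLC7A5 was called without Ni_6W replicate 2 (-3.04). The ATF4 arm's median was -0.54 without Ni_3D replicate 2. Between the controls, Control_6W against Control_3D, 0 members and 0 genes (0%) were called by edgeR and 0 members by DESeq2. HSP90B1 (0.62) and CEBPB (-0.64) had an unadjusted p under 0.05, as had 1240 genes, and groups did not overlap for 2 members above and 2 below, against 8.88% and 7.6% of all genes.

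In the nickel clones against Control_6W, 2 of the 38 members rose and 0 fell, both in the ATF4 arm, against 409 of 14172 genes higher (2.89%) and 337 lower (2.38%), or 5.26% in either direction. In either direction, the share of members called was about that of all genes. CEBPB (chr20:48807120-48809227, plus strand) was at 196 to 297 CPM in the 6 clones, with a median of 236 CPM, against 133 and 93.9 CPM in Control_6W. Every clone was above both controls, a log2 fold change of 1.08 (SE 0.20, edgeR, Benjamini-Hochberg adjusted p = 0.0226). PSPH, phosphoserine phosphatase, the last enzyme of serine synthesis (chr7:56078744-56119268, minus strand), was at 25.2 to 38.2 CPM in the clones, with a median of 30.4 CPM, against 19.3 and 15.7 CPM in Control_6W. Again no clone overlapped with the controls, a log2 fold change of 0.87 (SE 0.19, edgeR, Benjamini-Hochberg adjusted p = 0.0334). Without overlap, 3 members lay above the controls and 1 below, against 11.6% and 12.5% of all genes.

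Both Control_6W libraries were below all 4 libraries of Control_3D, which held 148 to 221 CPM of CEBPB and 23.9 to 30.7 CPM of PSPH and overlap with the clones. The difference between the controls was called for neither gene (-0.64 and -0.60, edgeR, Benjamini-Hochberg adjusted p = 0.58 and 0.592). Without Control_6W replicate 2 neither was called in the clones, at log2 fold changes of 0.84 for CEBPB and 0.72 for PSPH (edgeR, Benjamini-Hochberg adjusted p = 0.207 and 0.27). PSPH was also lost without clone 2, 3, 4 or 6, and without Control_6W replicate 1 MTHFD2 was called as lower in addition (-1.19). Against Ni_6W+2W 0 members were called by edgeR or DESeq2, against 2 genes higher and 2 lower of 14273 (0.014% each, 0.028% together), and 0 lay above or below without overlap, against 4% and 4.64% of all genes. An unadjusted p under 0.05 was reached there by 1 member, MANF, a secreted ER stress protein, at -0.33, and by 943 genes.

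The core readouts of the clones overlapped with Control_6W. ATF4 was at 148 to 322 CPM in the clones, with a median of 200.4 CPM, against 186 and 272 CPM in Control_6W (log2 fold change -0.07). DDIT3 was at 10.6 to 31.5 CPM, with a median of 18.9 CPM, against 17.6 and 29.9 CPM (-0.24). HSPA5 was at 595 to 850.1 CPM in the clones, with a median of 752 CPM, against 699 and 817 CPM in Control_6W (-0.03), and XBP1 at 78.0 to 146 CPM, with a median of 112 CPM, against 92.7 and 142 CPM (-0.09). The sensors ATF6, ERN1 and EIF2AK3 were at 0.04, -0.38 and -0.22. The arm medians were -0.07 (ATF4), -0.14 (ATF6) and 0.00 (XBP1), against 0.01 over all genes. The first of these turned with a single control library, to 0.42 with 17 of 19 positive without Control_6W replicate 2 and to -0.32 with 7 of 19 positive without replicate 1, and the XBP1 arm's was 0.24 and -0.18. In the other lists 1 of 12 transducers fell, EIF2S1, the alpha subunit of eIF2 (-0.56, SE 0.12, edgeR, Benjamini-Hochberg adjusted p = 0.0334), and 1 of 24 ER genes fell, DERL2, a channel protein of ER-associated degradation (-0.60, SE 0.13, edgeR, Benjamini-Hochberg adjusted p = 0.0299). EIF2S1 was at 73.7 to 90.4 CPM in the clones, against 106 and 135 CPM in Control_6W, without overlap. Of the members not called, the disulphide isomerase PDIA4 (455 to 574 CPM in the clones, against 422 and 446 CPM in Control_6W) lay above and MANF (65.8 to 91.8 CPM, against 93.6 and 117 CPM) below without overlap. None of the 12 tRNA ligases or 20 further ATF4 targets was called, and 1 and 4 of them had an unadjusted p under 0.05, as had 3568 of all 14172 genes.

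**Figure D5:**
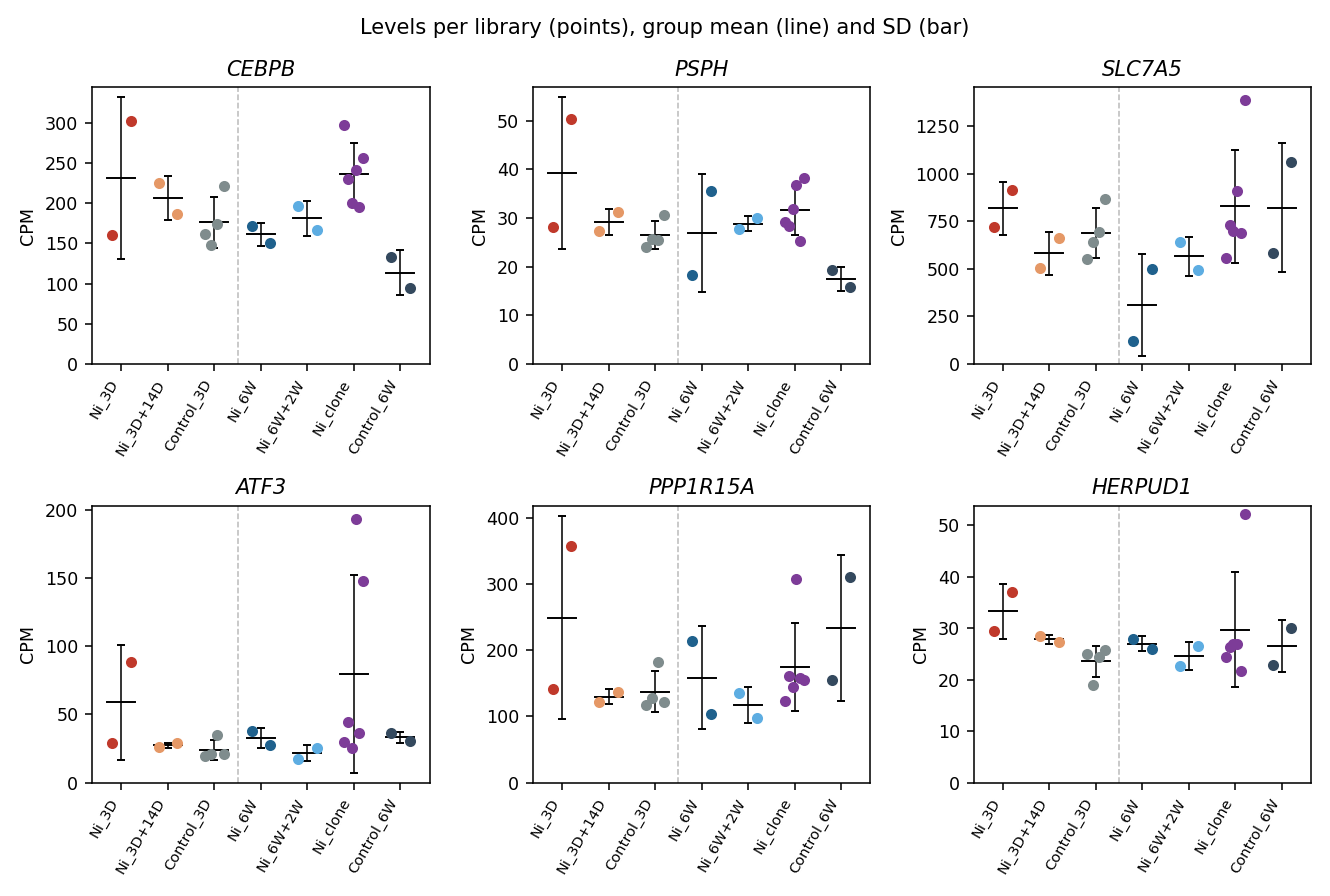
Points are CPM of 6 members in each library, with the group mean (line) and SD (bar), and the dashed line parts the short from the long groups. CEBPB and PSPH in all 6 clones lie above both Control_6W libraries, ATF3 is high in clones 4 and 6 (194 and 148 CPM), and HERPUD1 in clone 6 (52.1 CPM).

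The clones differed from each other in the ATF4 arm more than in the chaperones. Libraries of some other groups also differed in this arm. Its median of log2(CPM + 0.5), less each gene's mean over the 20 libraries, was -0.64 to 0.50 in the 6 clones. It was -0.38 and 0.35 in Control_6W, -0.35 to 0.27 in Control_3D, 0.30 and 1.11 in Ni_3D and 0.03 and 0.07 in Ni_3D+14D. Whether the clones differed more than libraries of the same group do was not tested. The SD of log2 CPM over the 6 clones had a median of 0.455 in the ATF4 arm, 0.2 in the ATF6 arm, 0.312 in the XBP1 arm and 0.199 in the sensors, against 0.226 over all 14172 genes. Clone 6 held the highest level of the clones for 13 of 19 ATF4 arm genes, against 18.8% of all genes. It also did so for 6 of 11 ATF6 arm genes, 3 of 5 XBP1 arm genes and 1 of 3 sensors, so this rank was not particular to the ATF4 arm. Clone 5 held the lowest level for 13 of 19 ATF4 arm genes, 1 of 11 ATF6 arm genes and 0 of 5 XBP1 arm genes, against 16.8%. The hypoxia list summed to 10339 CPM in clone 6, against 6522 to 7993 CPM in the other clones and 8090 and 8507 CPM in Control_6W, and its part in the order of the clones was not tested. In the order of clones 1 to 6, ASNS was at 53.0, 34.0, 50.8, 57.0, 18.6 and 95.0 CPM and CHAC1 at 32.9, 25.8, 21.1, 34.0, 4.40 and 49.3 CPM. Clone 6 exceeded clone 5 5.11-fold for ASNS, 11.2-fold for CHAC1 and 4.04-fold for PSAT1, 3 genes of amino acid and glutathione metabolism. ATF3 followed another order, at 29.4, 44.2, 25.6, 194, 36.5 and 148 CPM, high in clones 4 and 6. HSPA5 spanned 1.43-fold over the clones and CANX 1.17-fold. Each clone is 1 library, so differences between clones have no replicate check.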

How the data were processed

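Total RNA was prepared for sequencing with a TruSeq RNA kit, per the labels' protocols. For each library the authors deposited raw read counts per RefSeq gene, with no normalisation, and beside them RPKM values, which per the file headers are the authors' own and were used here for levels between genes in Control_3D. The submitters' processing notes name STAR 2.4, DESeq, DESeq2 and the builds GRCh37 and hg19. Their roles, the counter and the strand are not stated there. Libraries were joined by RefSeq identifier, and the authors' comparison tables were not used here.

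The 6 groups other than clones (14 libraries) shared 1 fit to the counts in edgeR 4.0.16 (R 4.3.3; TMM scaling, filterByExpr at 10 reads per library and 15 in total, quasi-likelihood F test, robust), with a biological coefficient of variation of 29.7%. Each clone comparison had its own fit. The SE is the log2 fold change divided by the square root of F. p-values were adjusted by Benjamini-Hochberg over all genes tested and called under 0.05. The members, lists and tests were chosen with earlier results of these data known. Values in every library were given for members called against a control and for ATF4, XBP1, HSPA5 and the sensors by rule, and for a few other members after their values were seen. Alternatives were RLE size factors, no filter, DESeq2 1.42.0, a replicate block, other libraries in the fit and leaving out libraries. Promoters are from RefSeq (GRCh38.p14).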

Additional observations from a re-analysis of the deposited data

Results flagged for a closer look

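Single libraries were set against the rest of their group for each member in the groups of 4 and of 6 libraries, by the gap to the nearest other library over the range of the group (Dixon's test). Of 76 tests 10 stood out, where chance gives about 1 in 20, or 3.8. In Control_3D it was 6 of 38 members, against 5.11% of all genes tested, and in the clones 4 of 38, against 9.02%. Members share libraries, so these tests are not independent. In Control_3D, ASNS was at 109 CPM and PHGDH at 448 CPM in replicate 4, against 30.8 to 43.9 CPM and 247 to 264 CPM in the others. ATF3 was at 34.8 CPM and PPP1R15A at 183 CPM in Control_3D replicate 3, against 19.4 to 20.9 CPM and 117 to 128 CPM. HSPA5 was at 1000 CPM (1000.4 CPM before rounding) in Control_3D replicate 1, against 604 to 665 CPM, and XBP1 was low at 83.6 CPM in replicate 2, against 107 to 109 CPM. Among the clones, VLDLR at 47.2 CPM (others 15.2 to 26.1 CPM) and HERPUD1 at 52.1 CPM (others 21.6 to 27.0 CPM) stood out in clone 6. PPP1R15A was at 307 CPM in clone 4, against 124 to 161 CPM, and SEL1L at 94.8 CPM in clone 5, against 81.5 to 85.6 CPM.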

How the results depend on the processing

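For the short exposure, the 4 members called became 8 with DESeq2 (7 higher, 1 lower), 1 without Control_3D replicates 1 and 2, 0 without Control_3D replicates 3 and 4, and 0 to 4 when single libraries were left out. For Ni_3D+14D against Ni_3D the 0 became 2 with DESeq2 and 1 (STC2) in a fit of those groups alone. For Ni_6W against Control_6W it became 1 with DESeq2 and 0 to 2 without single libraries, for Ni_6W+2W against Ni_6W 0 to 1 without single libraries, and for the long minus the short response 2 with DESeq2 and 0 to 1 without single libraries. For the clones against Control_6W the 2 became 1 with all 20 libraries in a fit and 0 to 3 without single libraries. With a replicate block 1 member (STC2) was called for the short exposure and 0 for the clones, and it changed no other count. Libraries of the same number correlated between groups at -0.353 to 0.316 in their deviations. The highest value was that of Ni_3D and Control_3D, whose replicates 1 also share the luminal breast markers, but no label ties equal numbers together and they were not taken as pairs. Counts of 0 held in every alternative run for Ni_3D+14D against Control_3D, Ni_6W+2W against Control_6W, Control_6W against Control_3D and the clones against Ni_6W+2W. Of the values of single named members under alternatives, 1308 kept their side of the threshold, 39 lost a call, 6 gained one and 0 reversed while called. The cause of these changes was not tested.

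Limits are the 2 libraries in most groups and the unknown origin of replicates. Luminal breast markers in 1 nickel and 1 control library of the short exposure are another. The ATF4 arm, and in some groups the other arms, also differed between libraries of the same group. Translation of ATF4 and splicing of XBP1 were not measured. Sets of genes were described by counts and medians and not tested.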
